A study of Mus musculus with 20 samples.

Results

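The 20 livers of the series were divided into groups chosen by a measured value, the level of 3 genes that the nuclear receptor PPARA switches on, Pdk4, Cyp4a14 and Cyp4a10. Each liver's score was the mean level of these genes, where a level is the log2 intensity of a gene's brightest probe minus the 75th percentile of all non-control probes on that array. The arrays came in 2 slide series of 10, told apart by their slides, and within each series the 5 highest scores made the high group and the 5 lowest the low group. This gave 10 high and 10 low livers out of 20. The 3 score genes made the groups, so their values are given as a description, and a call for any other gene means that it varied with the score over these livers.

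All livers came from male mice that the labels' protocols call C57BL/6J and the strain label C57BL/6. Fat supplied 60% of the calories of every mouse's feed after weaning, and the mice were 6 weeks old when the liver was sampled. The study labels 10 livers as diet-induced obesity responders, which are susceptible, and 10 as non-responders, which are resistant. One single-colour Agilent array was run per liver. Animal identifiers, feeding state and hour of sampling are not among the labels, so a p-value reflects only how these samples spread. The tissue is bulk liver, in which fewer cells of a type and less RNA per cell cannot be told apart.

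PPARA is a fatty acid sensor of hepatocytes. It pairs with RXRA and, when fatty acids reach the liver in fasting or with a fatty diet, switches on genes that oxidise them in mitochondria and peroxisomes, make ketones and store lipid in droplets. Pdk4 encodes a kinase that holds pyruvate back from oxidation and is also a strongly expressed gene of skeletal muscle, while Cyp4a14 and Cyp4a10 encode microsomal enzymes that hydroxylate the far end of fatty acids.

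The 250 bases before the annotated gene start are shown for the score gene Pdk4, for 2 genes that followed the score closely (Acot1 and Acot2) and for Fabp1, which holds the searched motif. The sequences come from RefSeq on build GRCm38.p6 and read 5′ to 3′ on the gene's strand. Pdk4 lies at chr6:5496279-5496528, minus strand, Acot1 at chr12:84009252-84009501, plus strand, Acot2 at chr12:83987611-83987860, plus strand and Fabp1 at chr6:71199629-71199878, plus strand. Capitals mark a match, on either strand, to 2 copies of AGGNCA in the same orientation with 1 base of any kind between them, a direct repeat of the kind that PPARA and RXRA bind. The motif was searched alone, so no other motif overlaps it.
Pdk4: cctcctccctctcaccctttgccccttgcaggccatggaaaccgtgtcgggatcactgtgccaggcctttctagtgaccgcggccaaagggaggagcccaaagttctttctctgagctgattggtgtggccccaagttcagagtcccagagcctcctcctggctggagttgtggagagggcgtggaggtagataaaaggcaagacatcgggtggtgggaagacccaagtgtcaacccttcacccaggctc
Acot1: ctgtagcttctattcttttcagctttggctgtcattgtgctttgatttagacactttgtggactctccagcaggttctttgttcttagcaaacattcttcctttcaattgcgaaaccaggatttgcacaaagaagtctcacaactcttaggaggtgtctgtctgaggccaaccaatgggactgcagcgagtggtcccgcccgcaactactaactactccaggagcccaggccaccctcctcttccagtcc
Acot2: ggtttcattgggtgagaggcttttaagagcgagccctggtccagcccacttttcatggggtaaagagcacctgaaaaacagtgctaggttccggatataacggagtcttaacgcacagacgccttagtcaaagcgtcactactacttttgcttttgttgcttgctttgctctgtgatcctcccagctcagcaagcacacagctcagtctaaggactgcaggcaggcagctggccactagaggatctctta
Fabp1: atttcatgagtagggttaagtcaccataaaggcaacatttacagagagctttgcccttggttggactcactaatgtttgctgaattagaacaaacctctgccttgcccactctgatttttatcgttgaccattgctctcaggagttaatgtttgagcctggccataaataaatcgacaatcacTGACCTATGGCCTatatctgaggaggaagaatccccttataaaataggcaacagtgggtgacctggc
The match in Fabp1 begins 67 bases before the gene start. Such a match stood in 111 of 32851 windows of the same length (0.338%), and in 2 of the 124 genes of the score and of the 8 PPARA and fatty acid lists that had a window, Fabp1 and Gdf15. The windows of Pdk4, Acot1 and Acot2 do not hold these letters, which says nothing about the factor. A match is a description of the sequence and not a measured site.

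Some libraries held high levels of genes of other tissues, in both groups. The mean level of 24 skeletal muscle genes, a list written after values were seen, ran from -6.01 to 3.50 in the high livers and from -5.90 to 3.47 in the low livers. The median of this mean was 2.10 in high and -1.06 in low livers. Between 10 and 24 of the 24 were well above background in high livers, and between 9 and 24 in low livers. The mean of 19 pancreatic markers ran from -5.69 to 4.61 in high livers (median 0.23) and from -5.84 to 4.58 in low livers (median -0.60). That of 9 adipose markers ran from -1.71 to 1.19 in high livers (median -0.37) and from -1.98 to 0.43 in low livers (median -0.82). The 11 hepatocyte markers were above background on every array, with a median mean level of 7.69 in high and 7.73 in low livers. Between 57.0% and 68.6% of spots were well above background in high livers and between 55.8% and 71.2% in low livers.

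The score formed a continuum with no clear step at the division. In the first slide series the high livers scored 6.15, 5.41, 5.01, 4.26 and 3.82, against 3.74, 3.68, 3.40, 3.10 and 1.996 in the low livers. In the second series the high livers scored 4.65, 4.44, 3.73, 3.08 and 3.02, against 2.80, 2.21, 2.11, 1.03 and 0.06 in the low livers. The livers on either side of the division were non-responder 3 (3.82) and responder 1 (3.74) in the first series, and responder 4 (3.02) and non-responder 10 (2.80) in the second. The gaps of 0.08 and 0.22 at the division were small beside the widest gap between neighbours in rank, which was 1.103 in the first and 1.082 in the second series. High livers averaged 4.36 ± 1.00 and low livers 2.41 ± 1.19 over both series (SD, n = 10 each). The groups overlapped when the series were pooled.

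**Figure D1:**
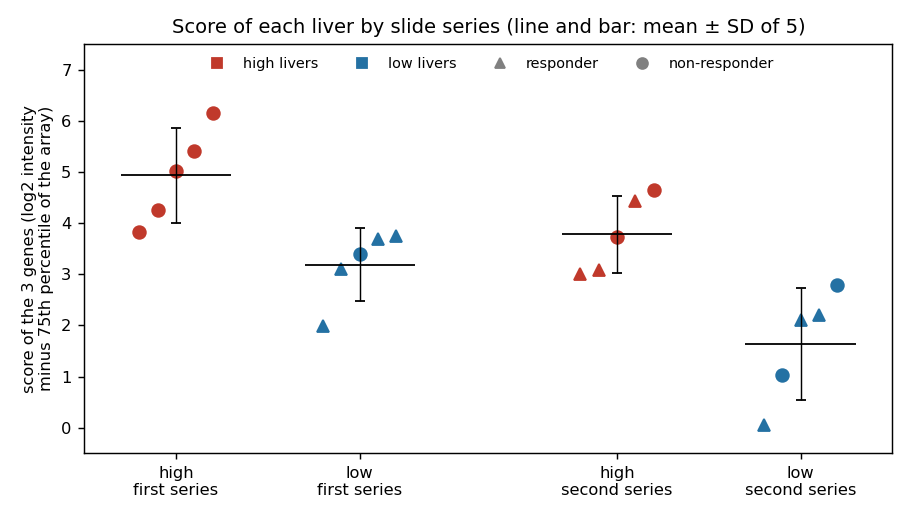
Score of each of the 20 livers (y axis, log2 intensity minus the 75th percentile of the array, mean of Pdk4, Cyp4a14 and Cyp4a10) by slide series and group, with 5 livers in each column. Horizontal lines are means and bars are SDs. All 5 high livers of the first series are non-responders, and the low livers of that series reach 3.74, beside 3.82 for the lowest high liver.

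The 3 score genes did not vary as 1 unit. Cyp4a14 had a lowest, median and highest level of 3.05, 4.29 and 7.88 in high livers, against -0.55, 2.71 and 4.53 in low livers. Cyp4a10 had 5.69, 6.36 and 7.82 in high livers and 2.83, 5.23 and 5.77 in low livers. Pdk4 had -1.27, 1.78 and 3.63 in high livers and -2.51, -0.37 and 2.55 in low livers. All 3 genes overlapped between the pooled groups. After each series' mean was removed, Cyp4a14 and Cyp4a10 correlated at r = 0.95 over the 20 livers, while Pdk4 correlated at 0.34 with Cyp4a14 and 0.37 with Cyp4a10. These are descriptions over livers that share array processing.

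Pdk4 moved with the muscle genes. Over the 20 livers, with series means removed, Pdk4 and the mean of the 24 muscle genes had Pearson r = 0.89 and Spearman rho = 0.92. Permutation within series gave p = 1e-05 for both, the smallest that 100000 resamples can give, and 3e-05 after Benjamini-Hochberg adjustment over the 3 relations computed. Pearson r was 0.85 in the first and 0.90 in the second series, and 0.91 without responders 6 and 8, the 2 livers farthest from the median of the muscle mean. Cyp4a14 had r = 0.23 and rho = 0.20 (permutation p = 0.336 and 0.416, the same after adjustment), with r = -0.13 and 0.47 within the series and 0.13 without those livers. Cyp4a10 had r = 0.29 and rho = 0.23 (permutation p = 0.229 and 0.327, adjusted 0.336 and 0.416), with r = 0.03 and 0.46 within the series and 0.25 without those livers. The relation of Pdk4 to the muscle genes was noticed in the data before it was computed, and the list was written after values were seen. The p-values and their adjustment over 3 relations do not allow for that, so the relation is a description. The same list is counted in the division that follows. Dividing each series by Pdk4 alone kept 16 of 20 livers in their group and gave 206 calls of 17197 features (1.2%), 193 higher (1.12%) and 13 lower (0.0756%), of which 22 were among the 24 muscle genes. The muscle genes had a median difference of 4.52 in that division, and the call with the smallest p was Trim63, a ubiquitin ligase of muscle. With the muscle mean as a covariate, added after values were seen, the Pdk4 division gave 4 calls (0.0233%), none of them among the 206. They were Lag3, Gpr162 and Gm19522, which were higher (0.0174%), and Arl4c, which was lower (0.00581%).

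**Figure D2:**
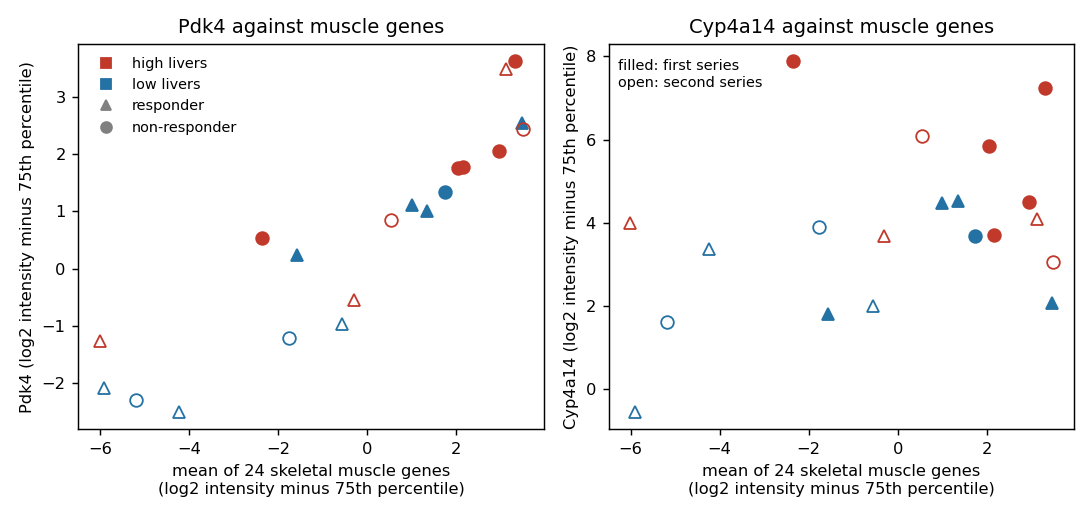
Level of Pdk4 (left) and Cyp4a14 (right) against the mean level of 24 skeletal muscle genes, both as log2 intensity minus the 75th percentile, 1 point per liver. Pdk4 follows the muscle genes (r = 0.89 with series means removed), while Cyp4a14 scatters (r = 0.23).

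Across all other genes, high and low livers were compared with limma on the log2 levels, with slide series as a term. Of 17197 features 0 (0%) passed at 0.05 after Benjamini-Hochberg adjustment, where the lowest value reached was 0.114. At an unadjusted p of 0.05 there were 2153 features (12.5%), of which 864 were higher in high livers (5.02%) and 1289 lower (7.5%). The median difference over all features was -0.02. No gene came within the naming rule by passing the threshold, so the following pair was chosen after its values were seen, for the smallest p. Tacc2, which encodes a centrosome-associated coiled-coil protein, had 2.73, 3.13 and 3.49 (lowest, median, highest) in high livers against 1.97, 2.50 and 2.94 in low livers, a difference of 0.68 (SE 0.11). Katnal1, a katanin-like microtubule-severing protein, had -3.80, -3.19 and -2.67 in high livers against -2.78, -2.48 and -1.80 in low livers, a difference of -0.72 (SE 0.12). Both had an adjusted p of 0.114, and all 10 high livers stood on the same side of the mean of their series' low livers. Katnal1 was 1 of 4 features (0.0233%) whose groups did not overlap in either series.

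The slide series differed in how many genes were called, although no single gene's difference was shown to depend on the series. In the first series alone limma called 223 features (1.3%), 110 higher (0.64%) and 113 lower (0.657%). In the second series alone it called 0, with 929 at an unadjusted p of 0.05. The interaction of group and series called 0 features, with 1833 at an unadjusted p of 0.05. Of the 223, 149 had the same sign in the second series (66.8%), against 8933 of all 17197 (51.9%). An unadjusted p under 0.05 there with that sign was reached by 2 of the 223, against 546 of all 17197. Leaving out 1 liver of the first series gave 12 to 479 calls. In the first series the division nearly repeats the label, since its high livers were all non-responders and 4 of its 5 low livers were responders. Dividing that series by label called 0 features, with 1789 at an unadjusted p of 0.05. With the muscle mean as a covariate 206 features were called in the first series.

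Taken as a number instead of 2 groups, the score had 6 features that rose with it (0.0349%) and 0 that fell. The named ones were Cyp4a31, Crat, Acot2 and Acot1, and 2 were probes without a gene symbol in the sources used here. By the array's own annotation 1 of these probes lies on chromosome 4, 458 bases from the Cyp4a31 probe and in the opposite orientation, and the other is unmapped. Both varied with Cyp4a31 (r = 0.94 and 0.95 over 20 livers, series means removed), so the 6 calls may hold the CYP4A locus more than once. Leaving out each liver in turn gave 5 to 9 calls. Cyp4a31, a close paralog of the Cyp4a genes of the score, rose by 0.95 (SE 0.11) per unit of score, with an adjusted p of 0.000255 by limma. Crat, the carnitine acetyltransferase that moves short acyl groups onto carnitine, rose by 0.45 (SE 0.06) per unit, adjusted p = 0.000912. Acot2, a mitochondrial acyl-CoA thioesterase, rose by 0.35 (SE 0.05), adjusted p = 0.00129. Acot1, its cytosolic relative, rose by 0.43 (SE 0.07), adjusted p = 0.0450. These 4 were also the named genes closest to the score, with r of 0.90, 0.88, 0.87 and 0.80 over 20 livers after series means were removed. Next came Hsdl2, a peroxisomal dehydrogenase-like protein chosen after its values were seen, with r = 0.79. Close behind it were Tacc2 (r = 0.79) and, falling with the score, Tmem86b, Arhgap26, Sox14 and Ddx59 (r = -0.79 each). CYP4A genes resemble each other closely in sequence, as do Acot1 and Acot2, and whether their probes capture each other's RNA was not tested. A score of Cyp4a14 and Cyp4a10 alone, which leaves out Pdk4, had 23 calls (0.134%), 15 higher (0.0872%) and 8 lower (0.0465%). These included the same 4 genes and 2 probes, and also Hsdl2, Ehhadh, Acsl1, G0s2 and Gk, the glycerol kinase gene, all higher. Tlcd4, Adck5, Ppp2r2d and Rab9 were the other higher calls. The lower calls were the neutrophil chemokine gene Cxcl1, and Fnip2, Grip2, Sox14, Acpp, Tbc1d2b, Arhgap26 and Anks4b. That alternative was added after values were seen.

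**Figure D3:**
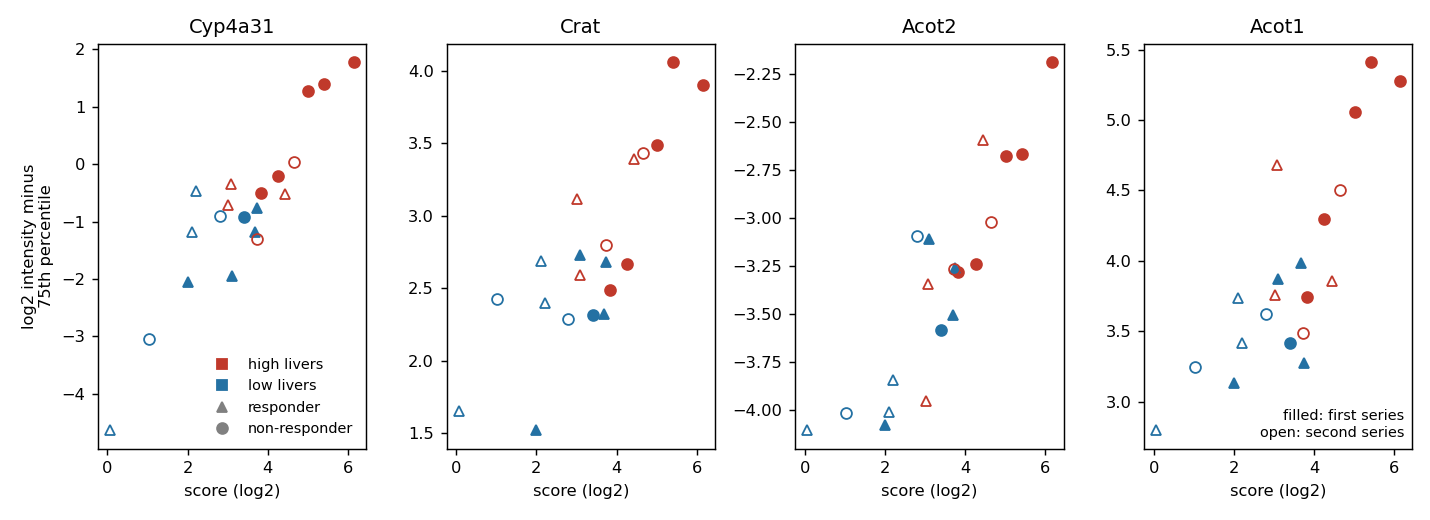
Level of Cyp4a31, Crat, Acot2 and Acot1 (y axes, log2 intensity minus the 75th percentile) against the score (x axes), 1 point per liver. Filled points are the first and open points the second slide series. All 4 genes follow the score across both series, with r between 0.80 and 0.90 after series means are removed.

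The 8 lists of PPARA targets and fatty acid genes were described together and one by one. They held 149 measured genes beside the score genes. Of these, 113 were higher (75.8%, against 44.7% of all features) and 36 lower (24.2%, against 55.3%) in high livers. The median difference was 0.13, against -0.02 over all features. At an unadjusted p of 0.05, 41 were higher (27.5%, against 5.02% of all features) and 5 lower (3.36%, against 7.5%), and 0 passed after adjustment (smallest adjusted p 0.151). The median was 0.16 in the first and 0.07 in the second series, 0.12 with the muscle mean as a covariate and 0.14 with the clock genes Dbp and Npas2 as covariates. It was lower by the other divisions, at 0.085 for Pdk4 alone and 0.084 for Cyp4a14 and Cyp4a10. Of the 149, 80 were higher in both series (53.7%), against 23.1% of all features. In the first series alone 5 of the 149 were called (3.36%, against 1.3% of all features), all higher: Slc22a5, Cidec, Gpat3, Fads2 and Lpin2. The first 4 of these were also higher in the second series, and Lpin2, a phosphatidate phosphatase, was lower there (-0.53, SE 0.36).

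**Figure D4:**
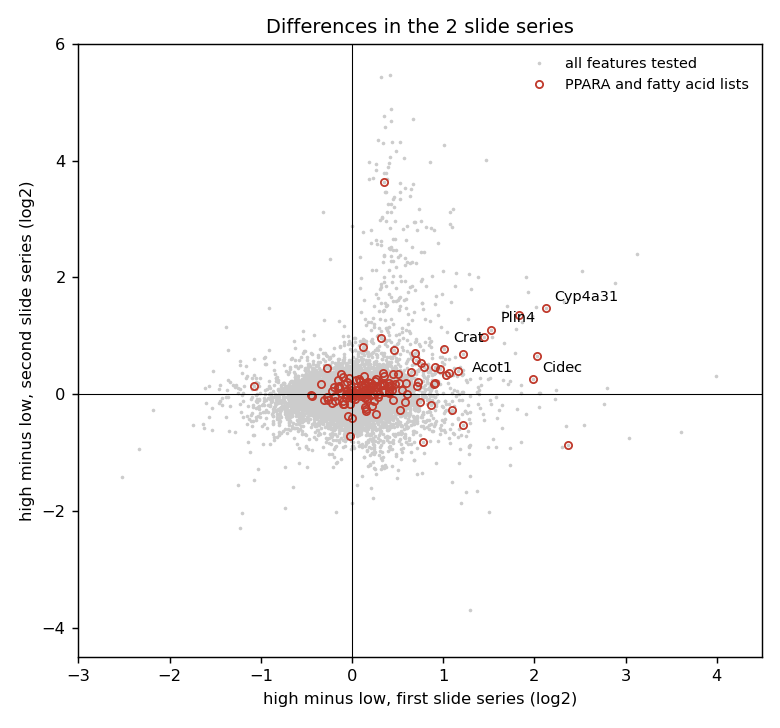
High minus low difference (log2) of every feature in the first (x axis) and the second (y axis) slide series. Grey points are all features tested and red circles the PPARA and fatty acid genes, of which 80 of 149 lie above 0 in both series.

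All 3 measured CYP4A paralogs outside the score were higher in high livers, with a median difference of 0.63. Cyp4a31 had a lowest, median and highest level of -1.30, -0.27 and 1.77 in high livers, against -4.64, -1.18 and -0.46 in low livers. The difference was 1.80 (SE 0.45), with 2.12 in the first and 1.48 in the second series. Cyp4a12b, a fatty acid hydroxylase of male mouse liver, had 3.88, 4.45 and 5.13 in high livers against 2.97, 3.84 and 4.38 in low livers, a difference of 0.63 (SE 0.17). Cyp4a12a had 5.25, 5.54 and 5.69 in high livers against 4.29, 5.28 and 5.86 in low livers, a difference of 0.24 (SE 0.14). In each of the 3 genes all 10 high livers lay above the mean of their series' low livers, although the pooled groups overlapped. The 8 other CYP4 genes had a median difference of 0.01, with 5 higher and 3 lower.

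Peroxisomal genes had a median difference of 0.16 in the first series and of 0.0041 in the second. Of 30 measured, 22 were higher, 9 of them at an unadjusted p of 0.05 (30%, against 5.02% of all features), and 2 were lower at that threshold (6.67%, against 7.5%), with a median difference of 0.10. Crat had 2.49, 3.25 and 4.06 in high livers and 1.52, 2.36 and 2.73 in low livers, a difference of 0.89 (SE 0.21). Ehhadh, the bifunctional enzyme of peroxisomal beta-oxidation, had 3.72, 4.52 and 5.70 in high livers and 3.40, 3.70 and 4.55 in low livers, a difference of 0.71 (SE 0.22). Acot4, a peroxisomal thioesterase, differed by 0.68 (SE 0.22) and Hsd17b4, the other bifunctional enzyme, by 0.19 (SE 0.06).

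Of 23 mitochondrial oxidation genes 18 were higher, 8 of them at an unadjusted p of 0.05 (34.8%, against 5.02% of all features), and none was lower at that threshold. The median difference was 0.12, and was 0.12 in the first and 0.04 in the second series. Slc22a5, the carnitine carrier of the plasma membrane, differed by 0.54 (SE 0.14), with 0.90 in the first and 0.17 in the second series. Acot2 had -3.96, -3.13 and -2.19 in high livers and -4.11, -3.72 and -3.09 in low livers, a difference of 0.64 (SE 0.18) that turned to -0.12 with normexp background correction. Cpt2, the inner carnitine palmitoyltransferase, differed by 0.25 (SE 0.08) and Acadm, the medium-chain acyl-CoA dehydrogenase, by 0.19 (SE 0.07), and for both all 10 high livers lay above the mean of their series' low livers. Cpt1a, which admits long-chain fatty acids to mitochondria, differed by 0.22 (SE 0.10).

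Ketone genes gave no call at either threshold. Of 7 measured, 6 were higher, with a median difference of 0.10. Oxct1, which uses ketones in tissues such as muscle, differed by 0.64 (SE 0.31), a value that was 0.22 with the muscle mean as a covariate. Bdh1 differed by -0.19 (SE 0.09), the carrier gene Slc16a1 by 0.27 (SE 0.16) and Acat1 by 0.10 (SE 0.07).

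Among 16 genes of fatty acid uptake and activation, 11 were higher, 3 of them at an unadjusted p of 0.05 (18.8%, against 5.02% of all features). Acot1 had 3.49, 4.40 and 5.41 in high livers against 2.80, 3.42 and 3.98 in low livers, a difference of 0.96 (SE 0.22), with 1.22 in the first and 0.69 in the second series. Acsl1 and Acsl4, which activate long-chain fatty acids, differed by 0.47 (SE 0.13) and 0.30 (SE 0.12). The acyl-CoA binding gene Dbi differed by -0.16 (SE 0.09), the fatty acid translocase gene Cd36 by 0.14 (SE 0.15), and Fabp1, the liver fatty acid-binding protein whose window holds the motif, by -0.21 (SE 0.14).

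Lipid droplet genes had a median difference of 0.26, with 17 of 21 higher, and the division by Cyp4a14 and Cyp4a10 lowered it to 0.084. At an unadjusted p of 0.05, 8 were higher (38.1%, against 5.02% of all features) and 1 was lower (4.76%, against 7.5%). Adipose markers had the same direction, with a median of 0.35 and 6 of 9 higher, which was 0.06 with the muscle mean as a covariate and -0.13 by the Cyp4a14 and Cyp4a10 division. The adipose and droplet lists share Plin1, Cidea and Lipe. Cidea, a droplet protein of fat cells, had the highest difference in both lists. Its levels were -5.09, -1.69 and 1.63 in high livers and -5.23, -4.08 and -1.80 in low livers, a difference of 1.59 (SE 0.70) that was -0.061 by that division. The part of fat tissue in the droplet values was not tested. Plin4, a droplet coat protein that fat and muscle also express, had -0.61, 1.61 and 2.35 in high livers and -1.04, -0.03 and 1.64 in low livers, a difference of 1.32 (SE 0.31), or 1.16 with the muscle mean as a covariate. G0s2, an inhibitor of the lipase ATGL, had 2.58, 4.12 and 5.67 in high livers and 1.60, 2.93 and 3.62 in low livers, a difference of 1.22 (SE 0.35). Cidec, which enlarges droplets, differed by 1.12 (SE 0.36), with 1.98 in the first and 0.26 in the second series. Plin5, which couples droplets to mitochondria, differed by 0.70 (SE 0.22), and Plin2, the main droplet coat of hepatocytes, by 0.23 (SE 0.24).

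The 11 genes listed as secreted targets had a median of 0.23, with 0.42 in the first and 0.07 in the second series and 0.02 by the Pdk4 division. Of these, 9 were higher, 1 of them at an unadjusted p of 0.05 (9.09%, against 5.02% of all features). That gene, Retsat, encodes a retinol saturase that is not secreted, and differed by 0.42 (SE 0.15). Fgf21, the fasting hormone of the liver, had -2.06, -0.44 and 1.53 in high livers against -3.09, -0.99 and 0.40 in low livers, a difference of 0.68 (SE 0.45). Angptl4, an inhibitor of lipoprotein lipase, differed by 0.41 (SE 0.28), with 1.09 in the first and -0.27 in the second series. The apolipoprotein gene Apoa5 differed by 0.26 (SE 0.13). Of 41 other known targets 30 were higher, 12 of them at an unadjusted p of 0.05 (29.3%, against 5.02% of all features). At that threshold 2 were lower (4.88%, against 7.5%). Their median was 0.18, which was 0.28 in the first and 0.06 in the second series and 0.094 by the Pdk4 division. The transferrin receptor gene Tfrc differed by 0.51 (SE 0.11), the glycerol phosphate acyltransferase gene Gpat3 by 0.78 (SE 0.20), the sterol hydroxylase gene Cyp8b1 by 0.61 (SE 0.21) and the pantetheinase gene Vnn1 by 0.26 (SE 0.21).

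**Figure D5:**
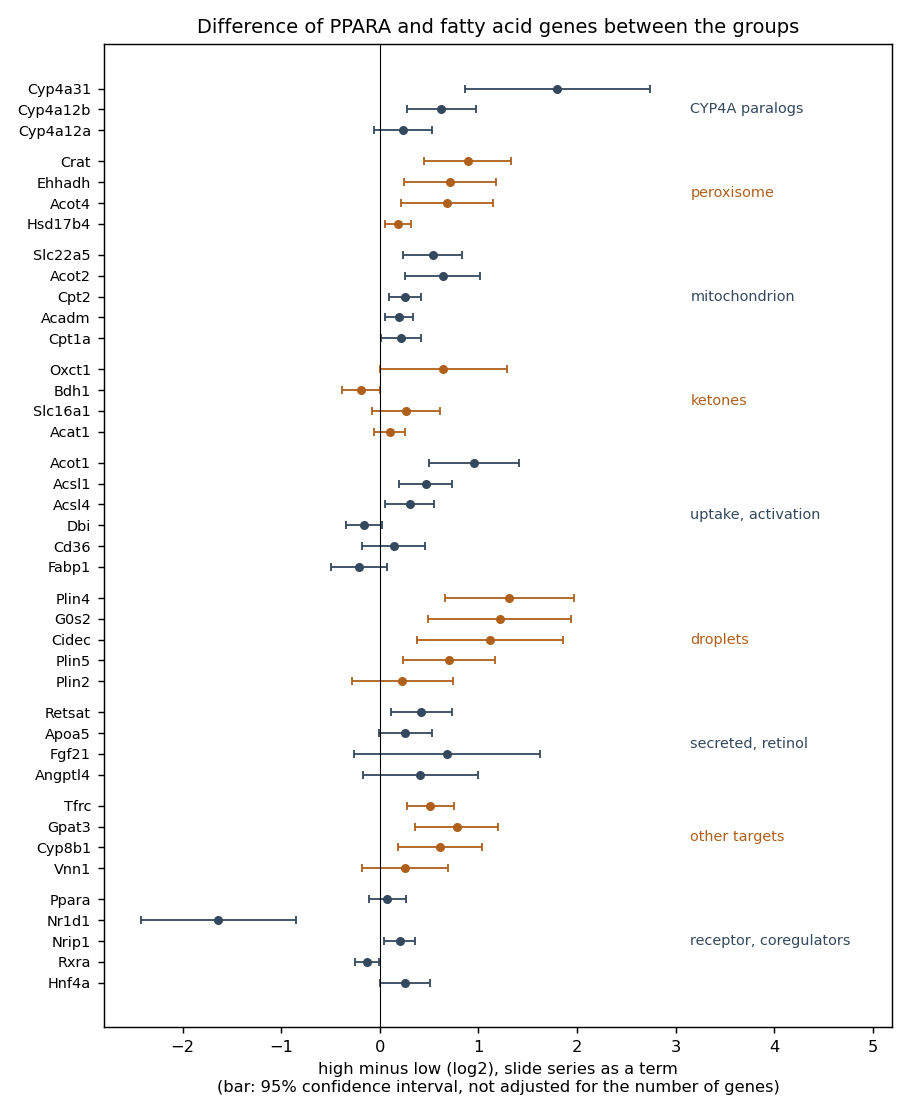
High minus low difference (x axis, log2, slide series as a term) of PPARA and fatty acid genes by role, with 95% confidence intervals that are not adjusted for the number of genes. Cyp4a31, Plin4 and G0s2 show the highest estimates among the genes drawn, and Ppara lies at 0.08.

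Over both series together, the receptor itself stood at nearly the same level in high and low livers. Ppara had 4.77, 5.02 and 5.34 in high livers against 4.43, 5.05 and 5.32 in low livers, a difference of 0.08 (SE 0.09, 95% interval -0.11 to 0.27). That value joins series of opposite sign, since the difference was -0.15 in the second series alone. The 23 genes of PPARA and its coregulators had a median of -0.01. At an unadjusted p of 0.05, 1 was higher (4.35%, against 5.02% of all features) and 2 were lower (8.70%, against 7.5%). The PPARA partner gene Rxra differed by -0.13 (SE 0.06), the corepressor gene Nrip1 by 0.20 (SE 0.08) and the hepatocyte factor gene Hnf4a by 0.25 (SE 0.12). Nr1d1, a repressor that belongs to the clock, differed by -1.64 (SE 0.37).

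Clock genes lay on both sides of 0. Nr1d1 had -2.74, -1.13 and 1.19 in high livers and -0.65, 0.95 and 1.53 in low livers. Cry1, a repressor of the clock, had -3.97, -3.16 and -2.20 in high livers and -5.54, -4.40 and -2.90 in low livers, where it was well above background on 7 of 10 arrays, a difference of 1.27 (SE 0.32) that turned to -0.12 with normexp. Nfil3 and Rora, further clock regulators, differed by 0.79 (SE 0.26) and 0.26 (SE 0.08). Dbp, a clock output gene with a strong daily rhythm, which was chosen after its values were seen, had 0.90, 4.15 and 6.42 in high livers and 2.15, 5.85 and 6.63 in low livers, a difference of -1.76 (SE 0.63). Of 19 clock genes, 5 were higher (26.3%, against 5.02% of all features) and 3 lower (15.8%, against 7.5%) at an unadjusted p of 0.05, and their median was 0.32 in the first and -0.59 in the second series. With Dbp and Npas2 as covariates, 0 features were called and 1069 had an unadjusted p under 0.05, against 2153 without them. Npas2 had no probe that met the background filter, so in every fit with these covariates its level came from an unfiltered, dim probe. The hour of sampling is not given in the labels, and its part in the result was not tested.

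Genes of glucose production and fasting had a median of 0.20. Of 22, 6 were higher (27.3%, against 5.02% of all features) and 1 lower (4.55%, against 7.5%) at an unadjusted p of 0.05. The median was 0.47 in the first and 0.02 in the second series, and 0.06 by the Cyp4a14 and Cyp4a10 division. Cdkn1a, a cell cycle inhibitor that fasting and glucocorticoids induce, had -2.16, 0.81 and 2.51 in high livers and -3.11, -2.20 and 0.28 in low livers. Its difference of 2.40 (SE 0.47) was 2.89 in the first and 1.91 in the second series, and 1.19 with Dbp and Npas2 as covariates. The aspartate aminotransferase gene Got1 differed by 0.74 (SE 0.25), the glucose-6-phosphatase gene G6pc by 0.62 (SE 0.24) and the stress-induced pseudokinase gene Trib3 by -0.62 (SE 0.25). Igfbp1, an insulin-repressed secreted binding protein, differed by 0.92 (SE 0.44), with 2.05 in the first and -0.21 in the second series. Glycolysis and glycogen genes had a median of -0.02. Of 21, 2 were higher (9.52%, against 5.02% of all features) and 6 lower (28.6%, against 7.5%) at that threshold. The regulatory protein gene Gckr differed by -0.22 (SE 0.07), Ugp2, which makes UDP-glucose, by -0.35 (SE 0.10) and Pfkfb1 by 0.40 (SE 0.12).

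Fatty acid synthesis genes had a median of -0.11. Of 23, 3 were higher (13.0%, against 5.02% of all features) and 5 lower (21.7%, against 7.5%) at an unadjusted p of 0.05. The lipogenic factor gene Srebf1 had 3.93, 5.26 and 6.17 in high livers and 5.41, 5.81 and 6.50 in low livers, a difference of -0.71 (SE 0.19). The cytosolic acetyl-CoA carboxylase gene Acaca differed by -0.54 (SE 0.15), and all 10 high livers lay below the mean of their series' low livers. Its mitochondrial counterpart Acacb, whose product restrains Cpt1a, differed by 0.53 (SE 0.14), and the desaturase gene Fads2 by 0.32 (SE 0.12).

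Among lists outside lipid metabolism, all 27 interferon response genes were lower in high livers, with a median of -0.28, where 55.3% of all features were lower. At an unadjusted p of 0.05, 5 of them were lower (18.5%, against 7.5% of all features). The immunoproteasome genes Psmb9 and Psmb8 differed by -0.43 (SE 0.15) and -0.29 (SE 0.13), and Oas1a and Ifit3, which interferon induces, by -0.50 (SE 0.21) and -0.39 (SE 0.18). Such genes vary together, and the median was -0.36 in the first and -0.08 in the second series. The 4 measured neutrophil markers had a median of -0.80, which was -0.22 by the Cyp4a14 and Cyp4a10 division, and 3 were lower at an unadjusted p of 0.05 (75%, against 7.5% of all features). Retnlg differed by -0.98 (SE 0.26), and was well above background on 6 of 10 high and 9 of 10 low livers, and S100a8 differed by -0.82 (SE 0.30). Spp1 and Cldn7, markers of bile duct cells, differed by -0.58 (SE 0.16) and -0.52 (SE 0.16), beside a median of -0.17 for the 9 cholangiocyte markers. Of 29 xenobiotic genes, 5 were higher (17.2%, against 5.02% of all features) and 3 lower (10.3%, against 7.5%) at that threshold. Their median of 0.22 was 0.24 in the first and 0.03 in the second series, and -0.03 by the Cyp4a14 and Cyp4a10 division. Cyp1a1, a target of the aryl hydrocarbon receptor, differed by -0.87 (SE 0.22), and was well above background on 5 of 10 high and 9 of 10 low livers. Ugt1a1, a bilirubin-conjugating enzyme, differed by 0.31 (SE 0.08), Cyp2c29 by 0.40 (SE 0.11) and Cyp3a41a by 0.37 (SE 0.13). The pancreatic markers had a median of 1.14, all 19 higher and none at an unadjusted p of 0.05. That median was 0.51 in the first and 1.74 in the second series and 0.22 with the muscle mean as a covariate, and it turned to -0.57 by the Cyp4a14 and Cyp4a10 division. The muscle genes had a median of 2.08, with 0.37 in the first and 3.89 in the second series. Of the 24, 23 were higher, 3 of them at an unadjusted p of 0.05 (12.5%, against 5.02% of all features). The part of these tissues in any difference was not tested. Fits with the muscle mean, the pancreatic mean or Adipoq as a covariate each called 0 features. The fit without a covariate also called 0, so these counts cannot show that part. At an unadjusted p of 0.05 there were 2233, 2125 and 2264 features with these covariates, against 2153 without.

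The study's own label was then crossed with the score, which the rule did not use. Responders made up 3 of the 10 high and 7 of the 10 low livers, and non-responders 7 of the high and 3 of the low. In the first series 0 responders and 5 non-responders were high, and 4 responders and 1 non-responder were low. In the second series 3 responders and 2 non-responders stood in each group. A two-sided exact permutation of the labels within series gave p = 0.183 for this division. The 10 responders averaged a score of 2.74 ± 1.22 and the 10 non-responders one of 4.03 ± 1.45 (SD), which is a difference of -1.06 within series (exact permutation p = 0.0799 over 44100 arrangements). The difference was -1.55 in the first series (exact permutation p = 0.0429) and -0.57 in the second (exact permutation p = 0.571), and whether the series differed in it was not tested. Permuting over all livers without regard to series gave -1.28 (p = 0.0459). Pdk4 alone differed by -0.61 (exact permutation p = 0.424), and the mean of Cyp4a14 and Cyp4a10 by -1.28 (exact permutation p = 0.0695). Leaving out each of the 20 livers in turn gave a p under 0.05 for 2 of them, with -1.41 without non-responder 9 (exact permutation p = 0.0163) and -1.26 without responder 7 (exact permutation p = 0.0313). The other 18 omissions did not, and the highest p came without responder 10 (-0.84, exact permutation p = 0.169). That the Cyp4a genes averaged lower in responders on these arrays was already known, so this direction is no independent support.

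Whether the high minus low difference of a gene depended on the label was tested by an interaction term, which called 0 features, with 655 at an unadjusted p of 0.05. With the label as a further term, 0 features differed between high and low livers, with 2010 at an unadjusted p of 0.05 and a smallest adjusted p of 0.0532. Within responders alone, limma called 0 features between 3 high and 7 low livers, with 286 at an unadjusted p of 0.05. The first series holds 0 high and 4 low responders. With the series term, this difference therefore rests on the second series, with 3 high and 3 low responders. Within non-responders alone, with 7 high and 3 low livers, it called 1, the predicted gene 9330119M13Rik, higher by 1.84 (SE 0.17), with 1626 at an unadjusted p of 0.05. Cyp4a31 kept a difference of 1.69 and Crat one of 0.84 with the label as a term.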

How the data were processed

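Liver RNA of 20 mice was hybridised to 20 single-colour Agilent arrays, labelled with Cy3 per the labels' protocols. The deposited files hold spot intensity values on a linear scale from Agilent Feature Extraction, whose version reads 10.5.1.1 per the file headers, whereas the submitters' processing notes give 9.1. Per the file headers, background was subtracted and spatial and multiplicative detrending applied to each array singly. A second table holds processed intensity values that the authors deposited for the same arrays. Its making is not given in the sources, and its columns each correlated best with their own array (r of at least 0.939).

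Log2 of the processed intensity minus the array's 75th percentile was used, without control and outlier-flagged spots. Of 41174 probes, 26176 met the filter, which was a signal well above background on 5 or more arrays among responders or among non-responders. The brightest probe stood for a gene, which gave 17200 features, 14695 of them with a symbol, and 17197 were tested beside the score genes. Symbols came from RefSeq by accession for 27479 probes. Levels of different probes are not comparable. limma 3.58.1 in R 4.3.3 was used to compare high and low livers (lmFit, eBayes, Benjamini-Hochberg adjustment at 0.05, slide series as a term). The slide series coincides with the scan day. The label was tested by exact permutation within series in Python 3.11.15. The number of arrays limits the precision. The fit was tested on simulated data.

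The members, the gene lists and the tests were chosen with earlier results of these data known. The rule for named genes took up to 12 called genes in each direction, the 4 members of each list with the smallest p (2 for markers of other cell types), measured CYP4A genes, a fixed set of well-known targets and the 4 named genes closest to the score. Lists described only by counts, or not at all, name no genes. Some genes that this rule takes are not reported here. Covariates for other tissues and the clock, other scalings, filters and divisions, and leaving out each array were tried as alternatives. Numbers in the sample titles were not used as pairs in the main fit, and a replicate block was an alternative. Same-numbered arrays correlated between -0.23 and 0.59, with 6 of 10 pairs above 0.1. Of 20 arrays, 6 correlated best with the array of their own number. These values do not settle whether the numbers pair the samples.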

Additional observations from a re-analysis of the deposited data

Results flagged for a closer look

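In 7 of 228 sets of 10 values looked at, 1 liver lay far from the others by Dixon's criterion (critical value 0.466 for 10 samples), where chance alone gives about 1 in 20. Fabp1 stood at 7.75 in responder 7, against 8.75 to 9.56 in the other high livers. Nfil3 stood at 1.01 in non-responder 7, against 2.18 to 3.39 in the other high livers, and the mean of the erythroid markers at 1.34 in the same liver, against 2.22 to 2.87. The hepatocyte marker mean was 8.25 in non-responder 3, against 7.48 to 7.87 in the other high livers. Among low livers, Cyp1a1 stood at -2.81 in non-responder 4, against -4.59 to -3.77 in the others, and Psmb9 at 4.51 in the same liver, against 3.30 to 3.85. Dbp stood at 2.15 in responder 3, against 4.85 to 6.63 in the other low livers. No described gene had a difference between high and low livers that depended on the slide series or on the label by the adjusted interaction test.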

How the results depend on the processing

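The count of 0 calls between high and low livers held under normexp, quantile scaling, the authors' values, both other filters, no series term, slide as a random block, the label as a term, the mean of all probes, the Adipoq, pancreatic, muscle and Dbp with Npas2 covariates, the second series alone, responders alone and the Cyp4a14 and Cyp4a10 division. Other settings gave 223 calls (first series alone), 206 (first series with the muscle covariate), 206 (Pdk4 division), 4 (Pdk4 division with the muscle covariate), 6 (score as a number; 5 to 9 without 1 liver), 23 (score of the Cyp4a genes as a number), 1 (non-responders alone) and 1 (3 highest against 3 lowest in each series, Pcnx2). Without 1 liver the count ran from 0 to 49, and was 49 without responder 5, 16 without responder 4, 6 without non-responder 7 and 1 without responder 6 (Pcnx2). In the first series it ran from 12 without non-responder 2 to 479 without responder 2, and each of the 10 omissions but that of non-responder 6 moved it by over 1.5 times. With the replicate block the count was 0, with and without the series term. The score difference between the labels was -1.39 (exact permutation p = 0.0321) with normexp, -1.28 (p = 0.0459) over all arrays, -1.55 (exact permutation p = 0.0429) in the first series alone, and -1.28 (exact permutation p = 0.0547) with the replicate block. Omitting 1 liver gave -1.41 to -0.84. The median of the PPARA and fatty acid genes moved to 0.46 with normexp. Of 3159 recomputed values of 72 described genes, 35 changed sign and 49 genes kept theirs throughout. The cause was not tested. The normexp fit estimated a mean residual background of -3048 to -63.2 on 6 arrays (2 high and 4 low livers), against -7.60 to 2.78 on the other arrays. With normexp, Acot2 was -0.12, Bdh1 0.21, Fabp1 0.16, Cry1 -0.12, Dbi 0.28, Rxra 0.26, Gckr 0.15 and Psmb8 0.052. In the second series alone, Angptl4 was -0.27, Ppara -0.15, Igfbp1 -0.21 and Hnf4a -0.13. In responders alone, Acsl4 was -0.026, Cidec -0.016, Angptl4 -0.20, Vnn1 -0.012, Ppara -0.24, Apoa5 -0.025, Hnf4a -0.11 and Psmb9 0.029. These responder values rest on the second series, since the first holds 0 high responders, so label and series cannot be told apart in them. In non-responders alone, Cd36 was -0.15, Fabp1 0.030, Fgf21 -0.42 and Igfbp1 -0.18. By the Pdk4 division, Plin2 was -0.070, Fgf21 -0.15, Vnn1 -0.020 and Slc16a1 -0.064. By the Cyp4a division, Cyp4a12a was -0.061, Cidea -0.061 and Dbi 0.025, and the slope of Dbi on the Cyp4a score was 0.0026. With Dbp and Npas2 as covariates, Plin2 was -0.048, and with the replicate block Cd36 was -0.0023.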
